A study of Mus musculus with 15 samples.

Results

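Glutathione is the main small thiol of liver cells, and the genes described here make it, recycle it, use it and break it down. The set has 9 members: Gclc, Gclm and Gss, which make glutathione; Gsr, which recycles it; Ggt1, Chac1 and Chac2, which break it down; and Gpx1 and Gpx4, which use it against peroxides. They were taken by their symbol in the authors' normalized table, and matched 9 of the 21538 gene symbols and 11 of the 41174 probes on the array, with 3 probes for Gsr and 1 for each of the others. All 9 genes, and all 11 probes, passed the filter on dim probes, as did 19335 genes in all.

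RNA was measured on 15 Agilent mouse arrays, 1 Cy3-labelled sample on each, in liver and liver tumors of FVB/N mice. The 3 control livers carried LAP-tTA alone, a transgene that drives a doxycycline-repressed activator in liver cells. The other 12 samples carried LAP-tTA x TRE-MYC, in which that activator turns on a MYC transgene when doxycycline is withdrawn. Chow with doxycycline at 200 mg/kg was fed to mice of all groups to an age above 8 weeks. The 4 pre-tumor livers had been off doxycycline for 4 to 5 weeks and held no tumor, and the 4 tumor nodules came from livers off it for 8 to 9 weeks. The 4 regression samples were tumor tissue at 8 to 9 weeks off, followed by 72 hours back on doxycycline. How long the controls were off doxycycline is not in the labels, which also do not say that each array was a separate animal, so p-values measure the spread between these samples, which may be technical.

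Glutathione is built in the cytosol in 2 ATP-driven steps, the first of which, catalysed by glutamate-cysteine ligase, usually sets the pace and is inhibited by glutathione itself. Hepatocytes are the body's main exporters of glutathione and can make its cysteine from methionine. Oxidised glutathione is returned to the reduced form with NADPH, exported glutathione is cleaved at the cell surface by gamma-glutamyl transferase, and a smaller cytosolic route cleaves it inside the cell. NRF2, a transcription factor that answers oxidants, acts through the antioxidant response element, and the MYC-MAX pair binds the canonical E-box.

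Promoter windows show where those letters lie beside the members. RefSeq windows of build GRCm38.p6, from 250 bases before to 50 after an annotated start, were found for 7 members (13 windows), and Gclc and Gsr had no entry. The core of the antioxidant response element was searched as TGACNNNGC and the E-box as CACGTG, on both strands and without overlap between the matches found. The first was present in 12.39% and the second in 7.15% of all 32851 windows of this length. Among the members' windows the element core was matched in 1 Gclm window and in 3 of the 4 Ggt1 windows, and the E-box in 1 Ggt1 window. These are the 4 windows printed, for the regulatory subunit of the first enzyme of synthesis and for the member with the largest change. Capitals mark the matches. The Gclm window is chr3:122245307-122245606 on the plus strand, with its match beginning 134 bases upstream of the start. The Ggt1 windows are all on the plus strand. Window 1 is chr10:75563882-75564181, with a match 41 bases downstream of the start. Window 2 is chr10:75568412-75568711, with a core match 36 bases upstream and the E-box 31 bases downstream. Window 3 is chr10:75571310-75571609, with a match 83 bases upstream. A match is a description of letters and no evidence of binding, and the arrays did not tell the Ggt1 starts apart.
Gclm: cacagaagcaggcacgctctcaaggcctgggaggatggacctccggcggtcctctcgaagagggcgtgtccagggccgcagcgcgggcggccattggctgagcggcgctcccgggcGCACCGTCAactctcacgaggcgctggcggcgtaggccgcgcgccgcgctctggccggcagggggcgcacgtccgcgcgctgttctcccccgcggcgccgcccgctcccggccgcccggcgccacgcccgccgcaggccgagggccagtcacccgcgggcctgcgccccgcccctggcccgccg
Ggt1 window 1: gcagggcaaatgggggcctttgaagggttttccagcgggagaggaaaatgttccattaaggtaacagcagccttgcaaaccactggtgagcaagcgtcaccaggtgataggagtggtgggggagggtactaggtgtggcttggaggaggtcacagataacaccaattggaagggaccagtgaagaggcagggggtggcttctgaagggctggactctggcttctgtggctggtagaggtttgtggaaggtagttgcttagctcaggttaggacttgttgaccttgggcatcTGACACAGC
Ggt1 window 2: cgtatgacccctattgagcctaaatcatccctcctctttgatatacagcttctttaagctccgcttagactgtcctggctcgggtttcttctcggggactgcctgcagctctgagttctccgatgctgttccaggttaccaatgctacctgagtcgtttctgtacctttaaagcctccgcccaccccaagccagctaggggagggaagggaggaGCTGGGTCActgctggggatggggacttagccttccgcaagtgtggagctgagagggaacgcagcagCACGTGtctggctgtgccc
Ggt1 window 3: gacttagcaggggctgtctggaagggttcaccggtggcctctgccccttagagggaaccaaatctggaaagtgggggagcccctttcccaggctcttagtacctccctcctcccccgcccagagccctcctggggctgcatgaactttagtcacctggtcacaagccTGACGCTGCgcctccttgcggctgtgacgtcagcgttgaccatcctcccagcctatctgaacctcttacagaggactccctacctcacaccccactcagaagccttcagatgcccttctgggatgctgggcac

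The arrays differed in signal, with 46.4% (tumor 3) to 90.8% (pre-tumor 4) of 43379 gene spots well above background. They came from 4 slides, each with at most 1 array of a group. Levels below are on a scale on which each array's 75th percentile is 100, and can be compared between arrays for 1 probe but not between genes. Differences are between group means on the log2 scale, ± the SE from limma, and adjusted p is limma's with Benjamini-Hochberg adjustment over 19335 genes. A gene changed when that p was under 0.05. The 5 comparisons share arrays, so they are not independent of each other. Of the 3 Myc probes, A_52_P108346 read 85.1, 52.3 and 32.4 on the control arrays and 1692, 1260, 2806 and 2044 on the tumor arrays. It read 562, 107, 329 and 115 on the pre-tumor arrays. On the regression arrays it read 67.9, 84.6, 93.1 and 56.5. The brightest Myc probe, A_52_P278549, gave −1.10 ± 0.47 in tumor against control (adjusted p = 0.129), so the probes disagree, and the files do not say which of them detects the transgene. Hepatocyte markers, 8 of 10 of which were measured, were present in all groups. Of these, 7 of 8 fell from control to tumor, beside 7% of all genes, and 5 of 8 rose from tumor to regression, beside 8.36%. Alb, the albumin gene, was among them, at −2.34 ± 0.44 and 2.61 ± 0.44. All 8 had a value on only 3 arrays each of the pre-tumor, tumor and regression groups, so marker values may rest on fewer arrays than the group holds. In bulk tissue, fewer cells of a type and less RNA per cell cannot be told apart.

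Across the comparisons the members moved in both directions. In pre-tumor against control 0 of 9 members changed by limma, as did 0% of all genes. Of 19335 genes, 505 had an unadjusted limma p under 0.05, fewer than that threshold gives by chance on average. Over all genes there were 3 calls in the authors' deposited table and 3 without pre-tumor 2. In tumor against control 4 of 9 changed, beside 16.4% of all genes: Ggt1 rose, beside 9.36% of genes higher, and Gclc, Gpx1 and Chac1 fell, beside 7% lower. In tumor against pre-tumor 4 of 9 changed, beside 19.1%: Ggt1 rose, beside 10% of genes higher, and Gclc, Gpx1 and Chac2 fell, beside 9.1% lower. Chac2 entered the test only through its pre-tumor arrays, so its place in that count supports nothing. In regression against tumor 3 of 9 changed, beside 16.8%: Gpx1 rose, beside 8.36% of genes higher, and Ggt1 and Gsr fell, beside 8.46% lower. In regression against control 2 of 9 changed, beside 8.34%: Ggt1 was higher, beside 5.03% of genes, and Gclm lower, beside 3.31%. The median difference over the 9 members was 0.11, −0.26, −0.34, 0.07 and −1.08 in these comparisons in turn, against −0.04, −0.18, −0.13, −0.13 and −0.25 over all genes. Arrays of the groups compared did not overlap for 1, 4, 4, 3 and 6 members, and for 2.81%, 25.5%, 21.2%, 23.8% and 25.4% of all genes. Chac2 is the 1 member so counted in pre-tumor against control and is among the 4 in tumor against pre-tumor. Its place in these counts too supports nothing, as it met the filter only through its pre-tumor arrays.

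**Figure D1:**
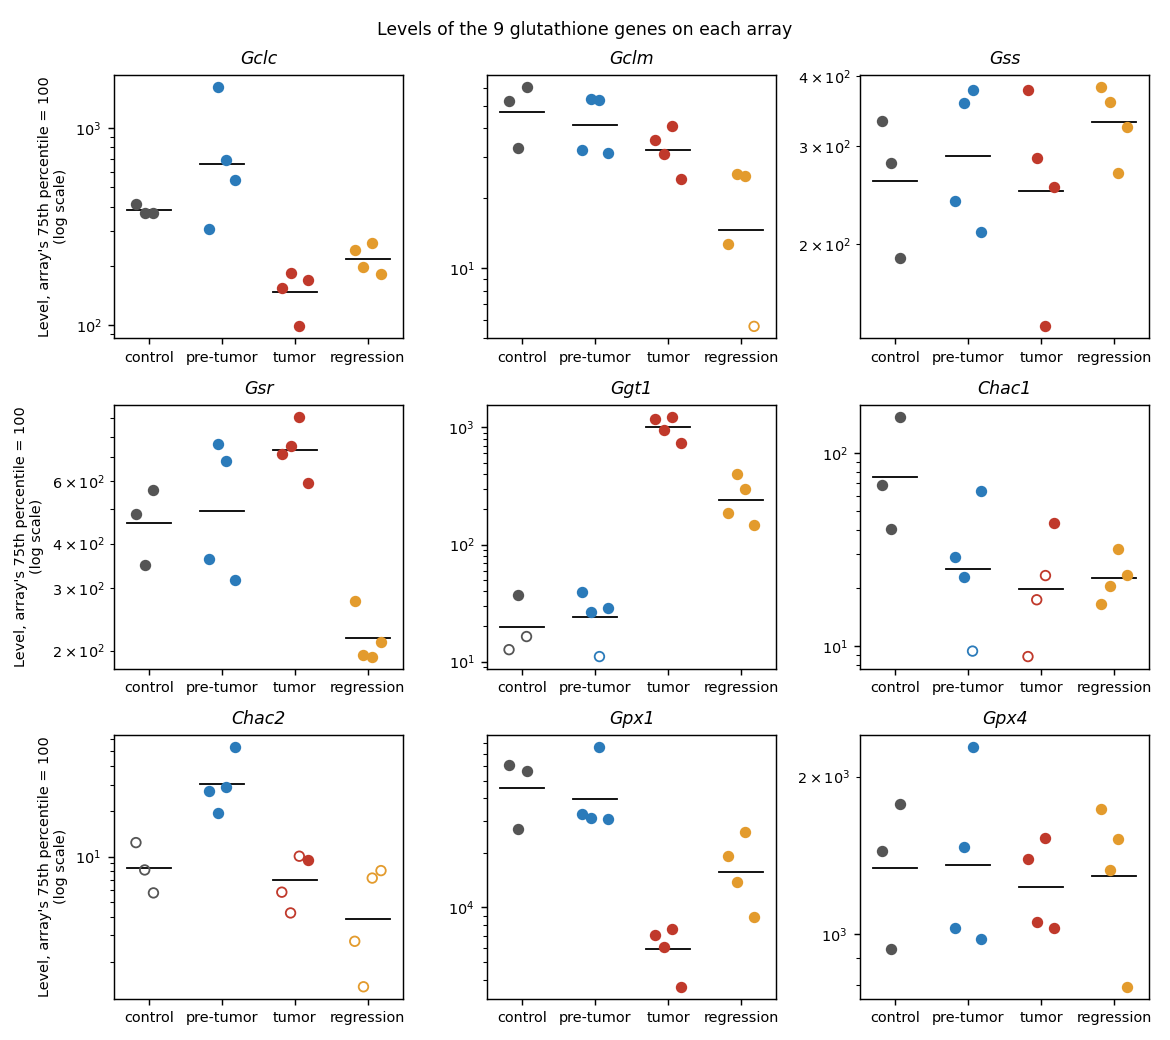
Level of each member on each of the 15 arrays (log axis, array's 75th percentile = 100), by group; filled points were well above background, open points were not, and lines are geometric means. Ggt1 sits at 735 to 1236 on the tumor arrays and at 37.4 or below on the control arrays, and Gpx1 at 3656 to 7614 on the tumor arrays and at 27201 or above on the control arrays.

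**Figure D2:**
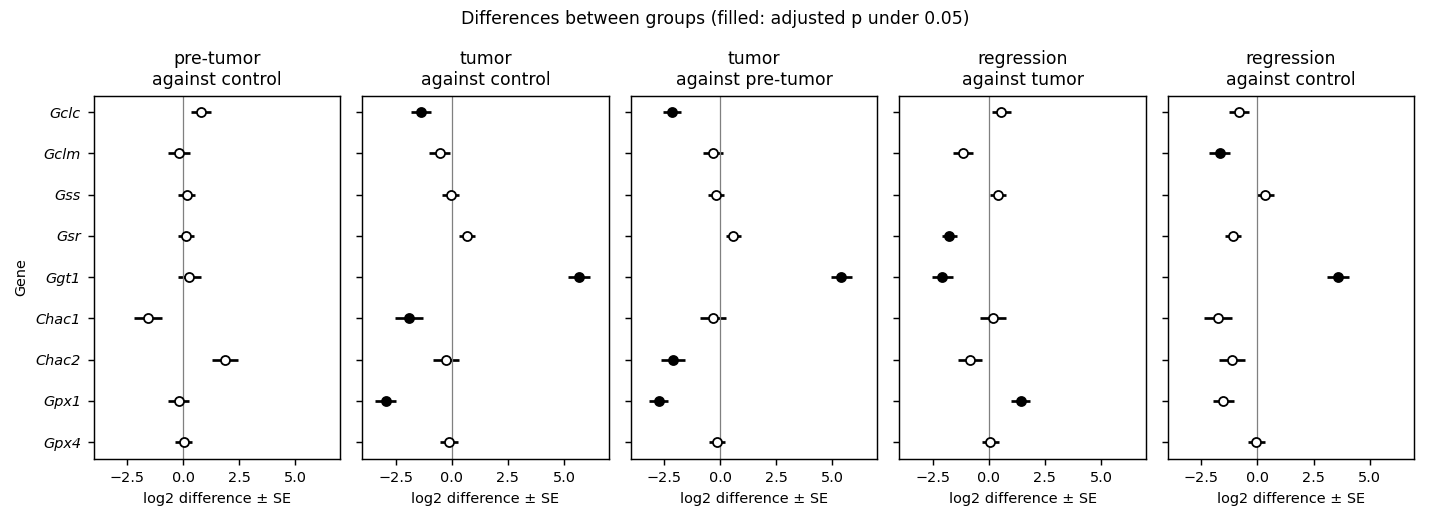
Log2 difference ± SE between groups for the 9 members in the 5 comparisons; filled points have an adjusted p under 0.05. Ggt1 stands at 5.67 in tumor against control, and no point is filled in pre-tumor against control.

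Synthesis was represented by 3 members, whose differences from each other were not tested. Gclc, the catalytic subunit of glutamate-cysteine ligase (probe at chr9:77579173-77579232, mm9), was lowest in tumors. Its level was 410, 369 and 373 on the control arrays and 307, 1624, 691 and 546 on the pre-tumor arrays. On the tumor arrays it was 154, 184, 98.7 and 171, and on the regression arrays 242, 196, 261 and 181. Every tumor array lay below every control and every pre-tumor array, while tumor and regression arrays overlapped by a small margin and the pre-tumor arrays were the most spread, with pre-tumor 2 highest. Tumor was 4.46-fold lower than pre-tumor, at −2.16 ± 0.41 (adjusted p = 0.00133), and the differences within the 4 slides ran from −4.04 to −1.0. Against control, tumor was 2.60-fold lower, at −1.38 ± 0.45 (adjusted p = 0.0460, within 3 slides −2.06 to −1.02). Each result was also computed in 25 alternative ways, with other normalization, background correction, filters and blocks and without each array in turn. That call was lost under 17 of the 25, over which the adjusted p ran from 0.0142 to 0.298. Those 17 include the slide as a block (−1.24, adjusted p = 0.138), normexp background correction (−0.95, adjusted p = 0.298) and median centring (−1.08, adjusted p = 0.192). It was also lost without any 1 of 12 arrays, that is all but pre-tumor 1, 2 and 3, with values from −1.48 to −1.18. Between tumor and regression the difference was 0.56 ± 0.41 (adjusted p = 0.471, 95% interval −0.32 to 1.44), and pre-tumor against control gave 0.78 ± 0.45 (adjusted p = 1.00). In order, the group means were pre-tumor 659, control 384, regression 218 and tumor 148. Of the neighbours in that order, only control and regression did not overlap, and their difference of −0.82 ± 0.45 did not pass (adjusted p = 0.271).

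Gclm, the modifier subunit that raises the activity of Gclc (probe at chr3:122251278-122253913, mm9), had its highest group mean in control (47.2) and its lowest in regression (14.6). It measured 52.7, 33.0 and 60.6 in control and 32.4, 53.3, 53.0 and 31.4 in pre-tumor livers. Tumors gave 35.7, 31.0, 40.9 and 24.2, and regression samples 12.7, 25.6, 25.0 and 5.62, the last of which was not well above background. Control, pre-tumor and tumor arrays overlapped, and all 4 regression arrays lay below the control arrays. In tumor against control Gclm differed by −0.55 ± 0.48 (adjusted p = 0.502). With regression 4 not well above background, no exact fold is given for regression against control. There Gclm was lower, at −1.69 ± 0.48 (adjusted p = 0.0396), with within-slide values from −3.23 to −0.40. This call was lost under 13 of 25 alternatives (adjusted p from 0.0246 to 0.987), including the slide as a block (−1.76, adjusted p = 0.0981), quantile normalization (−1.41, adjusted p = 0.154), the authors' table (−0.57, adjusted p = 0.107) and normexp, which left −0.01 (adjusted p = 0.987). Normexp adds an offset of 50 to every signal, and processed Gclm signals were only 3.76 to 50.1. Shrinkage there follows from the setting, as it does below for Chac1, Chac2 and the dim Ggt1 groups. Leaving out control 1, control 3, pre-tumor 1, tumor 1, tumor 2, regression 1 or regression 4 ended the Gclm call too, and without regression 4 the value was −1.23 (adjusted p = 0.0832). The difference from tumor to regression, −1.15 ± 0.44, did not pass (adjusted p = 0.0969).

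Gss, glutathione synthetase, adds glycine in the second step (probe at chr2:155255137-155256236, mm9). Its levels were 332, 279 and 189 in control, 239, 357, 377 and 210 in pre-tumor livers, 377, 285, 143 and 253 in tumors and 383, 359, 269 and 324 in regression. All 4 groups overlapped. Its differences were 0.14, −0.06, −0.20, 0.41 and 0.35 in the 5 comparisons as ordered above, with SEs of 0.35 to 0.37, and none passed. For tumor against control the 95% interval was −0.85 to 0.73, which leaves room for a change of either sign.

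Recycling rests on Gsr, glutathione reductase, which spends NADPH to restore reduced glutathione. Its brightest probe (chr8:35163862-35163921, mm9) read 484, 349 and 564 in control, and 361, 765, 682 and 317 in pre-tumor livers. Tumors gave 717, 755, 910 and 591, and regression samples 277, 195, 192 and 212. Regression arrays were below all others, and tumor arrays were above all control arrays. From tumor to regression Gsr fell 3.39-fold, by 1.76 on the log2 scale (SE 0.34, adjusted p = 0.00187), and the within-slide differences of −2.10 to −1.45 were close to each other. The call held under all 25 alternatives. The 2 other Gsr probes, at chr8:35163276-35163335 and chr8:35163841-35163900 (mm9), gave −1.64 ± 0.37 (adjusted p = 0.00633) and −1.82 ± 0.35 (adjusted p = 0.00230), here over the 29877 probes with a symbol. In tumor against control the difference of 0.68 ± 0.36 did not pass (adjusted p = 0.232). Neither did regression against control at −1.08 ± 0.36 (adjusted p = 0.0804), although it passed with quantile normalization (−1.12, adjusted p = 0.0215) and in the authors' table (−1.03, adjusted p = 0.00412), and probe A_52_P91604 alone gave −1.30 ± 0.38 (adjusted p = 0.0477). The group means ran tumor 734, pre-tumor 494, control 457 and regression 216, and of these pre-tumor overlapped both tumor and control.

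Breakdown outside the cell begins with Ggt1, gamma-glutamyl transferase, which cuts the gamma-glutamyl bond of exported glutathione and is long used as a marker of altered liver cells. The probe lies at chr10:75029406-75029641 (mm9). In control it read 12.6, 37.4 and 16.4, and was well above background only on control 2. In pre-tumor livers it read 39.5, 26.3, 11.0 and 28.6, the third of these not well above background. Tumors read 1181, 957, 1236 and 735, and regression samples 187, 401, 296 and 146. Each tumor array was above every regression array, and every regression array above every control and pre-tumor array, while control and pre-tumor overlapped. Tumor exceeded control by 5.67 ± 0.49 (adjusted p = 1.16e-06) and pre-tumor by 5.39 ± 0.46 (adjusted p = 5.43e-07). Within slides the first difference ran from 4.3 to 6.61 and the second from 4.90 to 6.06. After 72 hours of doxycycline Ggt1 fell 4.22-fold, by 2.08 on the log2 scale (SE 0.46, adjusted p = 0.00492), and was then still above control by 3.59 ± 0.49 (adjusted p = 0.000255). Pre-tumor against control gave 0.28 ± 0.49 (adjusted p = 1.00).

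All 4 Ggt1 calls held under all 25 alternatives, but the sizes against the dim groups did not. With 1 of 3 control and 3 of 4 pre-tumor arrays well above background, no exact fold is given. Tumor minus control was 2.96 after normexp and 4.08 in the authors' deposited table, tumor minus pre-tumor 2.96 and 3.95, and regression minus control 0.96 and 2.19. The normexp offset of 50 shrinks differences from dim groups by construction. Bile duct cells also make this enzyme, and their markers were measured beside it. Of the 8 bile duct markers (8 of 8 measured), 0 rose in tumor against control, beside 9.36% of all genes. In the same comparison 1 fell, beside 7% of all genes, namely Spp1, which was not well above background on any tumor array. The summed level of these markers was 574 to 1414 on the control arrays and 566 to 998 on the tumor arrays. Krt19, a keratin of bile duct cells, differed by −1.15 ± 0.56 and Epcam by 1.29 ± 0.64 in that comparison, and neither passed. Of 8 macrophage markers 5 rose from tumor to regression, beside 8.36% of all genes. Their summed levels were 1629 to 4605 in tumor and 6347 to 13185 in regression. Beside the same 8.36%, 6 of 9 markers of stellate cells and fibroblasts and 6 of 8 of endothelium rose from tumor to regression. So did 3 of 9 of T, NK and B cells and 0 of 6 measured for neutrophils. The part of these cells in the differences from tumor to regression, for Ggt1 and for the other members, was not tested. Nor was the part of bile duct cells in the Ggt1 difference between tumor and control.

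Breakdown inside the cell is the work of Chac1 and Chac2, cytosolic gamma-glutamyl cyclotransferases that cut glutathione to 5-oxoproline and cysteinylglycine. Chac1 is induced by ATF4 in amino acid and endoplasmic reticulum stress, and Chac2 is the slower, more constant form. Both were dim, which limits what can be read from them. Chac1 (probe at chr2:119045695-119045754, mm9) read 68.1, 40.6 and 155 in control, and 29.1, 22.9, 9.43 and 63.7 in pre-tumor livers. In tumors it read 8.83, 17.4, 23.2 and 43.4, only the last being well above background, and in regression 16.6, 20.6, 31.8 and 23.5. Control 3 was the highest array, and tumor 4 overlapped the control range. Chac1 was lower in tumor than in control, at −1.92 ± 0.63 (adjusted p = 0.0483), a size that rests on 1 of 4 tumor arrays well above background and gets no fold, with within-slide values from −3.15 to 0.10. The call was lost under 15 of 25 alternatives (adjusted p from 0.0161 to 0.706), including the slide as a block (−1.80, adjusted p = 0.121) and normexp (−0.35, adjusted p = 0.706). It was also lost without control 1 or 3, pre-tumor 1 or 2, tumor 1, 2 or 3 or any regression array, and the value without control 3 was −1.41 (adjusted p = 0.214). Pre-tumor against control gave −1.58 ± 0.63 (adjusted p = 1.00), and regression against control −1.74 ± 0.63 (adjusted p = 0.103).

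Chac2 (probe at chr11:30877055-30877114, mm9) was brightest in pre-tumor livers. There it read 27.3, 19.5, 29.1 and 53.4, well above background on all 4 arrays. It read 12.4, 8.15 and 5.74 in control, 5.81, 4.23, 10.1 and 9.48 in tumor and 2.74, 1.37, 7.20 and 8.07 in regression, and of these only tumor 4 was well above background. Pre-tumor arrays lay above all 11 others. Against control this is at least 2.19-fold, with the control set to the dimmest signal that was well above background on each of its arrays, and it did not pass (adjusted p = 1.00). Tumor minus pre-tumor was fitted at −2.12 ± 0.53 (adjusted p = 0.00943, and 0.0132 with the slide as a block). Chac2 met the filter on dim probes only through the pre-tumor arrays, the high side of both comparisons, and 1 of 4 tumor arrays was well above background. Both are therefore given as a description with no exact fold. The call was lost with normexp (−0.18, adjusted p = 1.00) and in the authors' table (−0.42, adjusted p = 0.0596), and over the alternatives the adjusted p ran from 0.00245 upward.

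Use against peroxides falls to the 2 peroxidases. Gpx1, the abundant selenoenzyme that reduces hydrogen peroxide with glutathione (probe at chr9:108198037-108198096, mm9), read 60690, 27201 and 56480 in control, and 32698, 31163, 76579 and 30862 in pre-tumor livers. Tumors read 7012, 6066, 7614 and 3656, and regression samples 19241, 13739, 26042 and 8855. The tumor arrays were the lowest 4, regression arrays came next with no overlap on either side, and control and pre-tumor overlapped. Tumor was 7.73-fold below control, at −2.95 ± 0.46 (adjusted p = 0.000312), and 6.72-fold below pre-tumor, at −2.75 ± 0.43 (adjusted p = 0.000228). Within the 3 slides that held both, tumor minus control was −3.22 to −2.90, and both calls held under all 25 alternatives.

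In regression Gpx1 was 2.68-fold higher than in tumor, at 1.42 ± 0.43 (adjusted p = 0.0312), with within-slide values of 0.22 to 2.83. This rise was lost under 9 of 25 alternatives (adjusted p from 0.000246 to 0.267). They are the slide as a block (1.42, adjusted p = 0.0789), normexp (0.81, adjusted p = 0.267), median centring (1.44, adjusted p = 0.0858) and leaving out tumor 1, 2 or 4 or regression 1, 2 or 3. Leaving out 1 array at a time gave 1.18 to 1.70, with an adjusted p of at most 0.108. Regression was 2.89-fold below control, at −1.53 ± 0.46, which did not pass (adjusted p = 0.0536) and passed under 10 of 25 alternatives (adjusted p from 0.00199 to 0.220), such as normexp (−2.24, adjusted p = 0.00407). Red blood cells are rich in this enzyme. Of 7 erythroid markers, 0 rose and 1, Alas2, fell in tumor against control, beside 9.36% of all genes higher and 7% lower. From tumor to regression 4 of these markers rose, beside 8.36% of all genes. Their summed level was 4858 to 42515 in control, 2521 to 26156 in tumor and 15475 to 57555 in regression, and their part in the Gpx1 differences was not tested.

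Gpx4, which reduces lipid hydroperoxides in membranes and guards against ferroptosis (probe at chr10:79459075-79459226, mm9), had group means from 1230 (tumor) to 1352 (pre-tumor). It read 1439, 936 and 1776 in control, 1026, 1465, 2279 and 977 in pre-tumor livers, 1389, 1053, 1526 and 1026 in tumors and 1733, 1326, 1522 and 792 in regression. All groups overlapped. In tumor against control the difference was −0.12 ± 0.39 (adjusted p = 0.878), and its 95% interval of −0.95 to 0.70 does not reach the value of Gpx1. The other 4 differences lay between −0.14 and 0.07, and the sign of all 5 turned under at least 1 alternative. The difference between these 2 genes was itself not tested.

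Genes around the members were read from lists of the pathway's other parts. The background in tumor against control was 9.36% of genes higher and 7% lower, and in regression against tumor 8.36% higher and 8.46% lower. Of the calls in tumor against control 57.2% were higher, 67.4% after median centring and 46.9% without tumor 4. Of those in regression against tumor 49.7% were higher, and 16.2% after normexp. The lists share a few genes, such as Srxn1 and Me1. In tumor against control 17 of 25 glutathione transferases and glyoxalases fell and 2 rose, with a list median of −1.85. Gstk1, a transferase of mitochondria and peroxisomes, was at −3.30 ± 0.40 (adjusted p = 2.44e-05), Gsta1 at −3.19 ± 0.41 (adjusted p = 4.97e-05) and Gstm6 at −4.24 ± 0.42 (adjusted p = 4.50e-06). Transferases form near-identical families, so probes of Gsta and Gstm genes may read more than 1 gene. Of these 25, 6 rose and 1 fell from tumor to regression, with Gstm6 at 2.66 ± 0.39, Gstm7 at 1.87 ± 0.40 and Gstt2 at 1.48 ± 0.34 (adjusted p = 0.000297, 0.00432 and 0.00611).

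NRF2 and its other targets showed 5 falls and 0 rises among 12 genes in tumor against control, with a median of −1.14. Ephx1, the microsomal epoxide hydrolase, was at −4.21 ± 0.36 (adjusted p = 1.16e-06), Srxn1, which repairs over-oxidised peroxiredoxins, at −3.22 ± 0.52 (adjusted p = 0.000396), and Blvrb, a biliverdin reductase, at −2.35 ± 0.41 (adjusted p = 0.000812). In the regression samples 3 of the 12 were higher than in tumor, namely Ephx1, Srxn1 and Blvrb, at 2.64 ± 0.34, 1.59 ± 0.48 and 1.30 ± 0.38 (adjusted p = 0.000103, 0.0310 and 0.0282). Among 23 other peroxidases and thiol redox enzymes 3 rose and 4 fell in tumor against control, with Cat, catalase, at −2.70 ± 0.44 (adjusted p = 0.000437) and Prdx5, a peroxiredoxin, at −2.14 ± 0.43 (adjusted p = 0.00226). From tumor to regression 3 rose and 4 fell. Glrx3, an iron-sulfur glutaredoxin, was at −1.68 ± 0.34 (adjusted p = 0.00263) and Prdx6 at −1.23 ± 0.35 (adjusted p = 0.0241). Gpx8, a peroxidase of the endoplasmic reticulum, was higher (adjusted p = 0.0273). Its ratio of means was 1.18-fold with tumor set to the dimmest signal well above background on each array, an estimate and no lower bound. Of 11 genes that serve selenocysteine incorporation, on which Gpx1 and Gpx4 depend, 1 rose and 0 fell in tumor against control. This was Sephs1 at 0.97 ± 0.30 (adjusted p = 0.0343), which fell from tumor to regression by 1.35 (SE 0.27, adjusted p = 0.00294), while Selenop, the secreted selenium carrier, rose by 1.19 ± 0.38 (adjusted p = 0.0439). In tumor against control Selenop and Scly did not pass, at −1.22 ± 0.41 and −1.30 ± 0.55 (adjusted p = 0.0562 and 0.130). Pstk did not pass in regression against tumor, at −0.99 ± 0.37 (adjusted p = 0.0798).

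Supply of the building blocks was divided. Among 14 genes for cysteine, glutamate and glycine, 3 rose and 5 fell in tumor against control, with a median of −0.92. Cdo1, the dioxygenase that removes cysteine, was at −3.90 ± 0.45 (adjusted p = 1.55e-05), Mat1a, which activates methionine, at −3.35 ± 0.51 (adjusted p = 0.000247) and Bhmt, which returns homocysteine to methionine, at −2.84 ± 0.52 (adjusted p = 0.00105). From tumor to regression 3 rose and 2 fell, with Bhmt at 2.92 ± 0.48, Cdo1 at 2.29 ± 0.41 and Shmt2, the mitochondrial maker of glycine, at −1.99 ± 0.35 (adjusted p = 0.000632, 0.00128 and 0.00108). Of 16 genes for transport and peptide breakdown, 2 rose and 3 fell in tumor against control. Oplah, which opens the 5-oxoproline that Chac enzymes release, was at −4.13 ± 0.46 (adjusted p = 1.07e-05), the export pump Abcc3 at −2.00 ± 0.38 (adjusted p = 0.00145), and the pump Abcc4, with arrays that overlapped, at 3.22 ± 0.85 (adjusted p = 0.0149). From tumor to regression 2 rose and 1 fell, with Abcc3 at 1.89 ± 0.35 and Oplah at 1.45 ± 0.42 (adjusted p = 0.00158 and 0.0255). Ggt6, of the Ggt1 family and with arrays that overlapped, was at −1.75 ± 0.51 (adjusted p = 0.0260).

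Supply of NADPH, which Gsr spends, showed 4 rises and 2 falls among 10 genes in tumor against control, with a median of 0.76. The pentose phosphate enzymes G6pdx and Pgd were at 2.27 ± 0.34 (adjusted p = 0.000188) and 2.04 ± 0.48 (adjusted p = 0.00725), and malic enzyme, Me1, at −3.01 ± 0.63 (adjusted p = 0.00306). None rose (0 of 10) and 3 fell from tumor to regression. These were Tkt, transketolase, at −1.95 ± 0.40, Mthfd1, a folate enzyme, at −1.80 ± 0.41 and G6pdx at −1.15 ± 0.31 (adjusted p = 0.00311, 0.00606 and 0.0176). In the ATF4 pathway, to which Chac1 belongs, 4 of 14 genes rose and 0 fell in tumor against control, with a median of −0.02. Psat1, of serine synthesis, was at 6.74 ± 0.51 (adjusted p = 2.95e-07), Asns, asparagine synthetase, at 3.54 ± 0.36 (adjusted p = 5.01e-06) and Eif2ak4, the sensor of uncharged tRNA, at 1.53 ± 0.38 (adjusted p = 0.0104). In regression against tumor 2 of the 14 rose and 2 fell, with a median of 0.20. Psat1 fell by 2.40 (SE 0.47) and Asns by 1.77 (SE 0.33), and the stress gene Nupr1 rose by 2.30 ± 0.38 (adjusted p = 0.00240, 0.00175 and 0.000683).

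**Figure D3:**
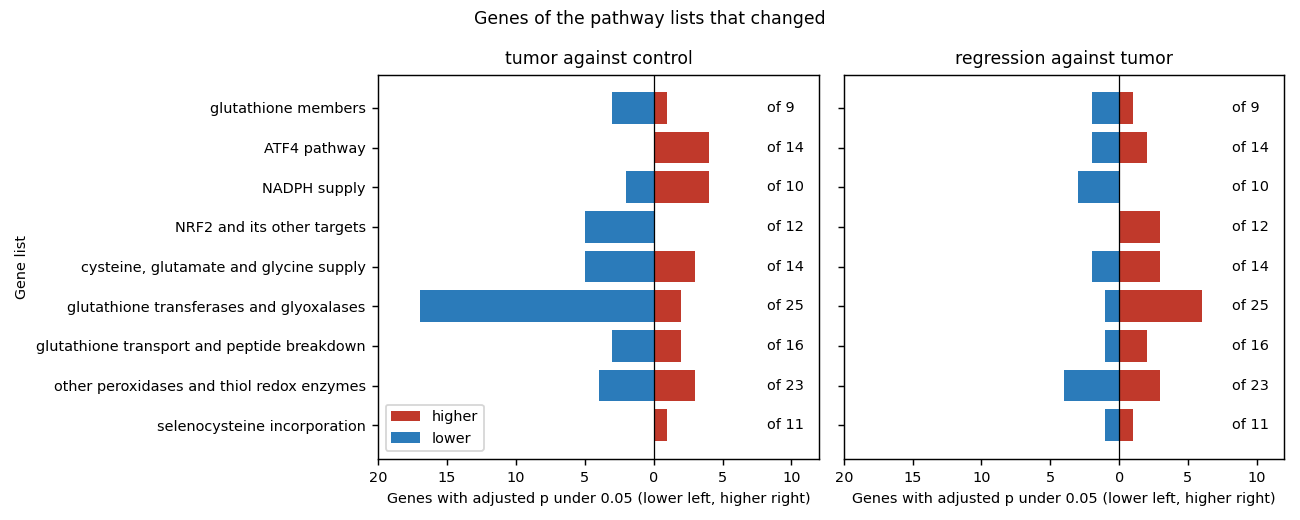
Number of genes in each list that rose (right) or fell (left) with an adjusted p under 0.05, in tumor against control and in regression against tumor, with the number measured beside each bar. The transferases and glyoxalases have 17 of 25 genes on the lower side in tumor against control, and the ATF4 pathway 4 of 14 on the higher side.

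Genes with the profile closest to a member were ranked by the root mean square of the log2 differences over the 15 arrays, after each of 16452 named genes was centred on its own mean. This is a description, since arrays of a group and the scaling of an array are shared by all genes. Nearest to Gsr were Psma5 (0.18), Psma7 (0.25) and Psmb3 (0.27), which encode proteasome subunits. Nearest to Gpx1 were Hint3 (0.30), Msrb1 (0.32), a selenoprotein that repairs oxidised methionine, and Aldh2 (0.35), an aldehyde dehydrogenase. Gclc had Lonp2 (0.39), a peroxisomal protease, Acbd5 (0.40) and Tapt1 (0.43). Gclm had Svip (0.26), Prdx6-ps2 (0.41) and Mcee (0.42). For Ggt1, Cenpa, a centromere histone, was at 0.64, Slc25a4 at 0.72 and Baiap2l2 at 0.75. Ggt1 had the widest spread of the members ranked, with an SD of 2.51 over the arrays against 0.77 to 1.36. The measure is not scaled by that spread, so its values do not rank closeness between members. The dim genes had Olfr803 (0.44), Foxi1 (0.46) and Slc25a54 (0.49) for Chac1, and Nxpe2 (0.52), Ikzf5 (0.67) and Olig1 (0.67) for Chac2.

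**Figure D4:**
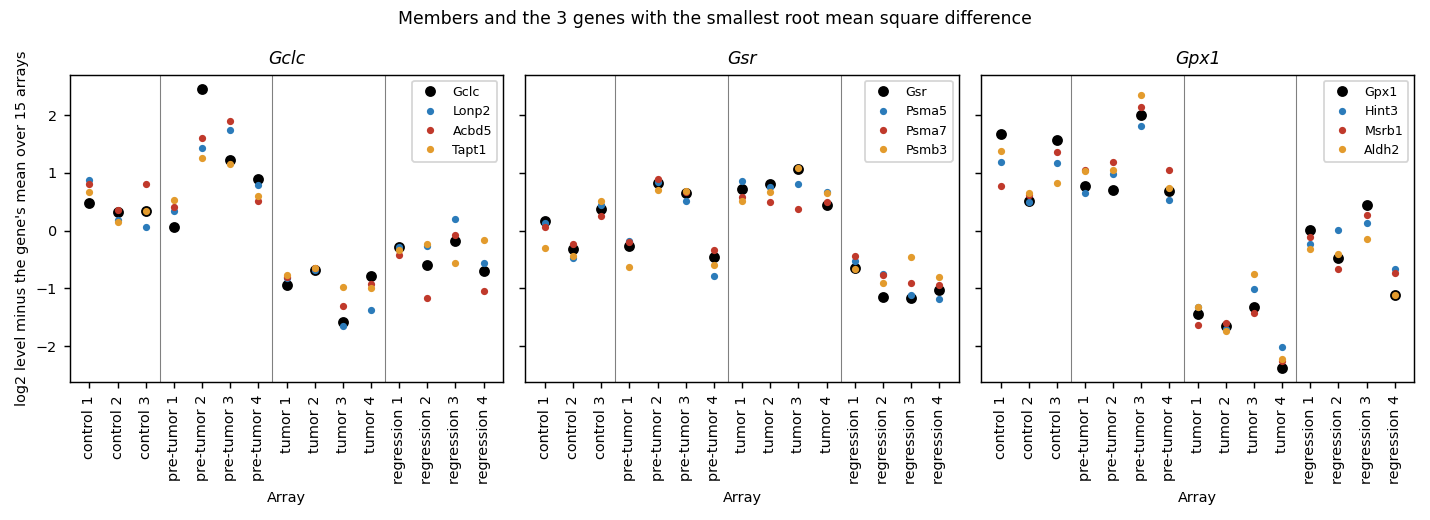
Log2 level minus the gene's own mean on each of the 15 arrays for Gclc, Gsr and Gpx1 (black) and the 3 genes with the smallest root mean square difference from each (colours). The 3 proteasome genes have root mean square differences of 0.18 to 0.27 from Gsr. Single arrays can lie further apart, such as regression 3 with Gsr at −1.17 and Psmb3 at −0.46.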

How the data were processed

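Cy3 intensity was measured on Agilent mouse 4x44K arrays, read with Feature Extraction 10.5.1.1 and background-subtracted, per the file headers. The authors' deposited table holds log2 intensity with no stated normalization, and was an alternative. Levels here are log2 processed signal minus the 75th percentile of the same array. Outlier spots were left out, spots of a probe averaged, and probes kept when well above background on at least 3 of 15 arrays. A gene is its passing probe with the highest mean. limma (3.58.1, R 4.3.3) fitted 1 model to the 4 groups, two-sided, and the procedure was tested on simulated data. The files had no mean signal, so normexp (offset 50) used median signals. Depth has no count here, and the number of arrays limits precision.

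Named genes were all members, Myc, 3 genes of each pathway list in tumor against control and in regression against tumor, and the 3 nearest profiles of each changed member. The 3 of a list were those with the lowest adjusted p, filled by size of difference where fewer passed. Alb, Krt19, Epcam, Spp1 and Alas2 were named from the marker lists by no such rule. The members and lists were chosen with earlier results of these data known. Results were recomputed under 24 other settings of normalization, background, filters, slide and replicate blocks, the groups fitted, probe summary and 15 left-out arrays and, chosen after seeing the data, median centring. Probe coordinates are mm9, per the file headers.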

Additional observations from a re-analysis of the deposited data

Results flagged for a closer look

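Gpx1 on pre-tumor array 3, at a level of 76579, lay far from the other pre-tumor arrays (30862 to 32698): its gap to the nearest of them was 0.936 of the group's whole range on the log2 scale. Of 27 member and group combinations tested in this way, 1 passed, and chance passes about 1 in 20.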

How the results depend on the processing

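Each of 45 member differences and 5 counts was recomputed under 25 alternatives, and no difference that passed the test turned its sign. The 4 Ggt1 changes, those of Gpx1 and Gclc in tumor against pre-tumor, of Gpx1 in tumor against control and of Gsr in regression against tumor passed under all 25. The 4 changed members in tumor against control became 2 with normexp, with no filter on dim probes and with the slide as a block, and 2 to 4 when 1 array was left out. The 2 in regression against control became 1 with the slide as a block, with only the 2 groups compared and with median centring, and 1 to 3 when 1 array was left out. The counts when 1 array was left out were 4 to 4 in tumor against pre-tumor, 2 to 3 in regression against tumor and 0 to 0 in pre-tumor against control. The cause of these moves was not tested.

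Over all genes, normexp called 1583, 2048, 1368 and 603 genes in tumor against control, tumor against pre-tumor, regression against tumor and regression against control, where 3162, 3700, 3253 and 1612 were called, and the slide as a block called 989 in the last. In that comparison 60.3% of calls were higher, 29.4% with normexp and 72.7% with median centring. The median difference over all genes in tumor against control moved from −0.18 to 0.12 with median centring and to 0.00438 with normexp, and in regression against tumor from −0.13 to 0.19 with normexp.

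Whether replicate numbers pair the arrays was not settled, and the main model used no pairing. The lowest correlation of same-numbered arrays was 0.085 or below in every comparison, and the highest ran from 0.24 to 0.61. In the 5 comparisons in turn, 2 of 6, 4 of 6, 5 of 8, 5 of 8 and 6 of 6 arrays correlated best with their own number. With the replicate block 4 members changed in regression against control, 4 in regression against tumor and 3 in tumor against control, and 3534 genes were called in regression against control (37.1% higher). Of its calls in tumor against control 47.5% were higher. It ended the call of Gclc in tumor against control (−1.34, adjusted p = 0.0511). Under it Gclm in pre-tumor against control gave 0.045, Gpx1 there 0.0039, and Gpx4 0.11 in regression against control and 0.039 in tumor against control.

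Differences that did not pass turned sign as follows. With normexp these were Chac2 in regression against control (0.41), regression against tumor (0.34) and tumor against control (0.068), Gclm in regression against tumor (0.15), Gpx4 in regression against tumor (−0.63), Gss in regression against control (−0.14) and against tumor (−0.089), and in pre-tumor against control Ggt1 (−0.0013) and Gpx4 (−0.050). Quantile normalization and the authors' table gave 0.32 and 0.12 for Chac2 in tumor against control, 0.062 and 0.022 for Gpx1 and −0.040 and −0.069 for Gpx4 in pre-tumor against control, and 0.032 and 0.14 for Gpx4 in regression against control. Median centring gave 0.036 for Chac2, 0.18 for Gpx4 and 0.24 for Gss in tumor against control, 0.093 for Gpx4 and 0.027 for Gss in tumor against pre-tumor, and 0.26 for Gpx4 in regression against control.

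Leaving out 1 array turned others. Over all 15 such settings the ranges were as follows. In tumor against pre-tumor they were −0.81 to 0.10 for Chac1, −0.29 to 0.11 for Gpx4 and −0.40 to 0.066 for Gss. In tumor against control they were −0.53 to 0.024 for Chac2, −0.38 to 0.084 for Gpx4 and −0.29 to 0.21 for Gss. In pre-tumor against control they were −0.047 to 0.73 for Ggt1, −0.57 to 0.0073 for Gpx1, −0.24 to 0.22 for Gpx4, −0.097 to 0.33 for Gsr and −0.086 to 0.32 for Gss. In regression against control they were −0.31 to 0.18 for Gpx4. In regression against tumor they were −0.21 to 0.56 for Chac1 and −0.073 to 0.30 for Gpx4.

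Signal near background limits Chac2 in all groups but pre-tumor, Chac1 in tumor and pre-tumor, Ggt1 in control and pre-tumor and Gclm in regression. The other values are limited by 3 or 4 arrays a group. Normexp adds an offset of 50, which shrinks differences between dim signals. Its losses and sign turns for the dim members named here therefore say little about them. Sizes for these members were smaller in the authors' table too.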
